A study of Mus musculus with 6 samples.

Results

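The genes described here encode the proteins of the mitochondrial ribosome in mouse brown adipose tissue. Members were all protein-coding genes whose symbol starts with Mrpl or Mrps, 48 named for the large subunit and 29 for the small one, which makes 77 of the 45320 gene identifiers measured. The annotation holds 78 such genes, and Mrpl33 had no matching identifier. Total RNA of whole brown fat was sequenced, and the deposited values are FPKM, fragments scaled to transcript length and sequencing depth, so levels can be set side by side between genes.

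C57BL/6 mice began a calorie-rich diet when 4 weeks old. They were divided after 4 weeks on it. The treated mice received the diet with RO5508887, a small-molecule inhibitor of the protease BACE1 (samples 17, 33 and 35), and the untreated mice stayed on the diet alone (samples 13, 14 and 15). Samples 33 and 35 hold the same 45320 values and were counted once, as treated 33/35, which leaves 2 treated and 3 untreated libraries. Separate animals are not stated, so the p-values reflect the spread among these libraries alone, which may be technical.

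The mitochondrial ribosome translates the 13 proteins encoded by mitochondrial DNA, all of them subunits of the respiratory chain and the ATP synthase. Its 2 ribosomal RNAs come from mitochondrial DNA, whereas its proteins are encoded in the nucleus, made in the cytosol and imported. Nuclear respiratory factor 1 and the ETS-family factor GABP are known activators of nuclear genes for mitochondrial proteins, and PGC-1 alpha (Ppargc1a) is their coactivator. Brown fat is rich in mitochondria, which carry the uncoupling protein that produces heat. Symbols do not always give the place of a protein: those of Mrps30 and Mrps18a sit in the large subunit, and the product of Mrps36 is now known as a subunit of the oxoglutarate dehydrogenase complex.

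Promoter sequences are shown for 4 members as examples, with matches to known motifs of these activators in capitals. Each runs 5′ to 3′ over the 250 bases before the RefSeq start site (GRCm38.p6). Mrpl12 carries an NRF1 motif on the opposite strand, Mrpl34 an ETS motif on the strand shown, Mrpl52 an ETS motif on the opposite strand, and Mrps2 no match. Mrps2, Mrpl34 and Mrpl12 are shown because they were low in 1 untreated library, and Mrpl52 because it was not.
Mrpl12 (chr11:120484387-120484636, plus strand): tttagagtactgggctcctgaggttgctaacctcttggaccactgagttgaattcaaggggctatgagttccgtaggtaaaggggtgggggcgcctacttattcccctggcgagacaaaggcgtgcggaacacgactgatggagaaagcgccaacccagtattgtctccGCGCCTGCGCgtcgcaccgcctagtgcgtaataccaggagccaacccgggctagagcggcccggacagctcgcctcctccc
Mrpl34 (chr8:71464676-71464925, plus strand): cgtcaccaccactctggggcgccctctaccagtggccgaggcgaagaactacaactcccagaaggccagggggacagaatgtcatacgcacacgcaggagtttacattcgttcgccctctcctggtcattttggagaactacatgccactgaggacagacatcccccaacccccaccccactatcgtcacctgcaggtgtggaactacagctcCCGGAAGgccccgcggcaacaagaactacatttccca
Mrpl52 (chr14:54426659-54426908, plus strand): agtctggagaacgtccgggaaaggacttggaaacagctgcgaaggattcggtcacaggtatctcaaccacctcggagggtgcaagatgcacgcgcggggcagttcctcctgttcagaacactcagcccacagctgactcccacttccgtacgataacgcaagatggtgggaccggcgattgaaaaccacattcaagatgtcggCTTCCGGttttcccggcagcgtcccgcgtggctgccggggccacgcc
Mrps2 (chr2:28467816-28468065, plus strand): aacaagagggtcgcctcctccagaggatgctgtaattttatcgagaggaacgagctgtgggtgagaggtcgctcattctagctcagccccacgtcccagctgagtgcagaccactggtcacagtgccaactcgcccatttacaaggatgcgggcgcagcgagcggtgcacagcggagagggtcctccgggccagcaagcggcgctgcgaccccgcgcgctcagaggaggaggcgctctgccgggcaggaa

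Libraries differed before any comparison of groups, and untreated 14 stood apart. Depth relative to untreated 13, read from the steps between low values, was 1.01 in treated 17, 0.960 in treated 33/35, 0.811 in untreated 14 and 0.881 in untreated 15, and read totals are unknown. Skeletal muscle markers (31 of 32 measured) made up 3.47% and 1.5% of the FPKM sum outside mitochondrially encoded genes in treated 17 and treated 33/35, against 0.0338%, 8.71% and 0.0325% in untreated 13, 14 and 15. Of these 31 markers, 30 reached 1 FPKM in both treated libraries and in untreated 14, and 16 did so in untreated 13 and in untreated 15. The marker Myh4 was listed at 0 in both treated libraries and in untreated 14. The 13 brown fat markers summed to 4952 and 5826 FPKM in the treated libraries, against 6688, 2158 and 7014 FPKM in untreated 13, 14 and 15, with none at 0. Summed levels of 5 endothelial markers lay between 127 and 164 FPKM, and of 5 macrophage markers between 86.4 and 135 FPKM. In bulk tissue, fewer cells of a type and less RNA per cell cannot be told apart.

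Every member was detected in every library, and levels spanned a 24.2-fold range. The mean over the 5 libraries ran from 8.60 FPKM (Mrpl57) to 208 FPKM (Mrpl30), with a median of 59.5 FPKM and quartiles of 35.6 and 75.1 FPKM. Most members, 60 of 77, lay between 20 and 100 FPKM, 12 lay above 100 FPKM and 5 below 20 FPKM. All 77 passed the filter of a mean of at least 1 FPKM and entered the test over 13527 genes.

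The highest levels belonged to Mrpl30, Mrps36, Mrpl42, Mrps21 and Mrpl34. Mrpl30, a large-subunit protein with a bacterial counterpart (chromosome 1, 37890477 to 37898535, GRCm38), measured 207 and 213 FPKM in treated 17 and treated 33/35, against 246, 151 and 225 FPKM in untreated 13, 14 and 15. Mrps36 measured 197 and 229 FPKM in the treated libraries, against 254, 95.9 and 257 FPKM in untreated 13, 14 and 15. In both genes untreated 14 was lowest and untreated 13 and 15 were above both treated libraries. Mrpl42, which is specific to mitochondrial ribosomes, measured 193 and 168 FPKM in the treated libraries, against 198, 201 and 192 FPKM in the untreated ones. Mrps21, a small-subunit protein with a bacterial counterpart, measured 167 and 166 FPKM in treated libraries, against 189, 158 and 180 FPKM in untreated ones. The groups overlapped in both genes, and untreated 14 was the highest library for Mrpl42 and the lowest for Mrps21.

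The lowest levels were all in genes of the large subunit: Mrpl57, Mrpl35, Mrpl11, Mrpl1 and Mrpl19. Mrpl57 measured 8.73 and 7.99 FPKM in treated libraries, against 9.09, 8.69 and 8.51 FPKM in untreated 13, 14 and 15. Mrpl11, a protein at the base of the stalk that contacts elongation factors, measured 12.2 and 12.6 FPKM in treated libraries, against 13.7, 12.3 and 13.2 FPKM in untreated ones. Mrpl35, Mrpl1 and Mrpl19 averaged from 12.5 to 16.6 FPKM, and groups overlapped in all 5 genes.

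**Figure D1:**
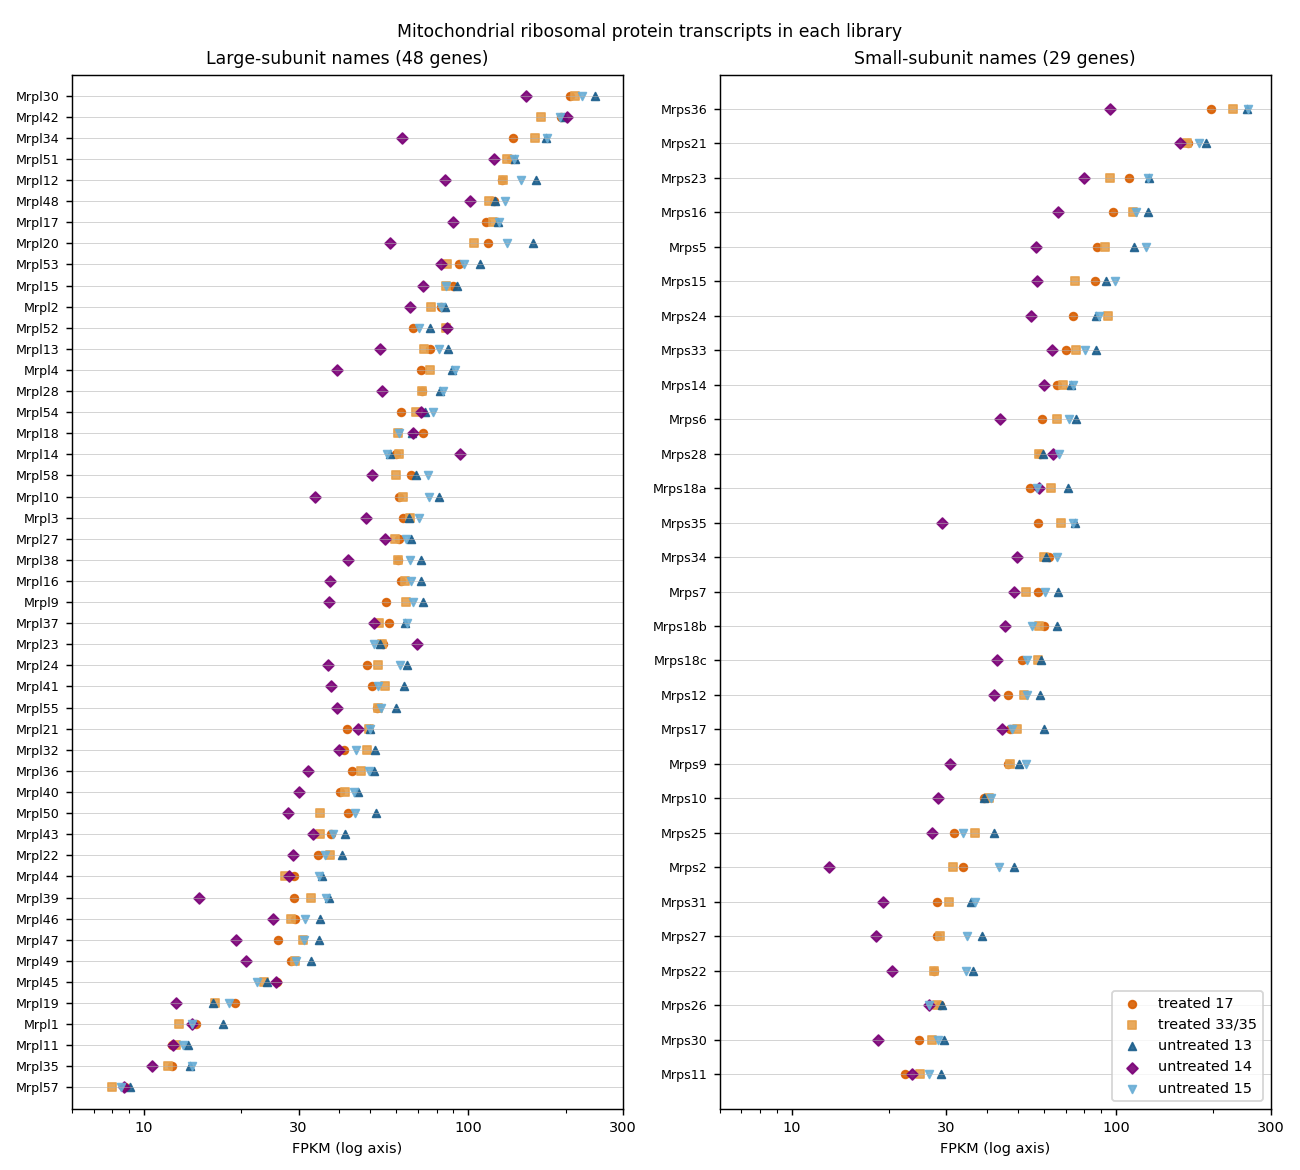
FPKM (log axis) of each member in the 5 libraries, with large-subunit names on the left and small-subunit names on the right, ordered by mean level. Points stand for single libraries, and untreated 14 (purple diamonds) is the lowest point for 62 of 77 genes.

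Large and small subunit genes stood at nearly the same level in each library. Median FPKM of the 48 large-subunit genes was 58.3 and 59.7 in treated 17 and treated 33/35, against 65.4, 41.3 and 63.0 in untreated 13, 14 and 15. For the 29 small-subunit genes it was 57.5 and 57.9 in treated libraries, against 61.1, 44.5 and 57.2 in untreated 13, 14 and 15. Large minus small on the log2(FPKM + 0.5) scale was 0.019 and 0.044 in the treated libraries, against 0.097, -0.11 and 0.14 in untreated 13, 14 and 15. The median of the large subunit was below that of the small one in untreated 14 but not in the other 4 libraries. Group means of this difference were 0.032 ± 0.018 (SD, n = 2) in treated and 0.043 ± 0.13 (SD, n = 3) in untreated libraries, so they differed by -0.011, less than the spread between the untreated libraries. With Mrps30 and Mrps18a placed in the large subunit and Mrps36 left out, the difference between groups was -0.026. In that arrangement treated 17 also had a lower median in the large subunit, by 0.031 on the log2 scale.

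Treated and untreated libraries did not separate on these genes. With limma, 0 of 77 members passed an adjusted p under 0.05 in either direction, while over all 13527 genes 0.0444% passed, 0.0296% higher and 0.0148% lower in treated libraries. An unadjusted p under 0.05 was found for 0 of 77 members and for 0.924% of all genes. Mean log2 values were higher in treated libraries for 43 members and lower for 34. Over all genes tested, 35.7% were lower in treated libraries. The median difference over members, treated minus untreated on the log2(FPKM + 0.5) scale, was 0.015 with quartiles of -0.065 and 0.066, against a median of 0.061 over all genes. With each library centred on its own median, the sign turned, to -0.097 for the members and -0.051 for all genes. Medians were 0.023 in the large and 0.0031 in the small subunit. Single differences ran from -0.20 (Mrpl44) to 0.27 (Mrpl34), and 75 of 77 were smaller than their own standard error, which had a median of 0.22. A change of that size would not have been detectable with these libraries.

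Both treated values lay below all 3 untreated values in Mrpl54 and Mrps28, 2 of 77 members against 3.18% of all genes tested. No member had both treated values above all untreated ones, which held for 5.5% of all genes. Mrpl54, a protein specific to mitochondrial ribosomes near the stalk, measured 61.9 and 69.3 FPKM in treated libraries, against 73.7, 71.7 and 78.0 FPKM in untreated ones. Its log2 difference was -0.18 (SE 0.15, limma adjusted p = 1). Mrps28, a small-subunit protein, measured 58.2 and 57.9 FPKM in treated libraries, against 59.4, 64.2 and 66.7 FPKM in untreated ones. The difference was -0.13 on the log2 scale (SE 0.15, limma adjusted p = 1). The nearest values of the groups were 69.3 and 71.7 FPKM for Mrpl54 and 58.2 and 59.4 FPKM for Mrps28.

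**Figure D2:**
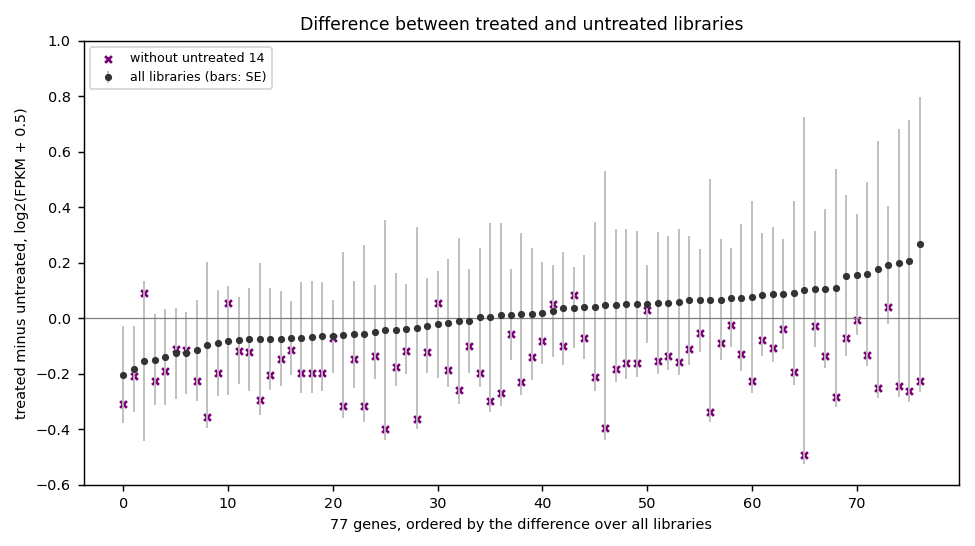
Treated minus untreated difference on the log2(FPKM + 0.5) scale for the 77 members, ordered by the value over all libraries. Grey bars are standard errors around that value, and crosses give the difference without untreated 14, which is below 0 for 70 genes.

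Untreated 14 stood apart from the other libraries on these transcripts. It was the lowest of the 5 libraries for 62 of 77 members, 36 of 48 in the large and 26 of 29 in the small subunit, whereas 43.6% of all genes tested were lowest there. Against the mean of untreated 13 and 15, the median difference of untreated 14 was -0.47 on the log2 scale, with quartiles of -0.74 and -0.26, and 70 members lay below. Across all genes tested the median was -0.077, with 7327 of 13527 below. More than 2-fold lower values were not more frequent than elsewhere: 10 of 77 members, or 13.0%, against 13.8% of all genes. It is a single library, so the difference has no replicate and no test. Skeletal muscle markers were at 8.71% of the FPKM sum outside mitochondrially encoded genes in that library. Their part in the displacement was not tested.

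The members farthest below in untreated 14 were Mrps2, Mrpl34, Mrps36, Mrps35 and Mrpl20. Mrps2, a small-subunit protein with a bacterial counterpart (chromosome 2, 28468066 to 28471178), measured 33.7 and 31.4 FPKM in treated libraries. Its untreated 14 value of 13.1 FPKM was 3.53-fold below the mean of untreated 13 and 15, which had 48.5 and 43.7 FPKM. Mrpl34, a short protein of the large subunit with a bacterial counterpart (chromosome 8, 71464959 to 71465747), measured 138 and 161 FPKM in treated 17 and treated 33/35, against 174, 62.4 and 175 FPKM for untreated 13, 14 and 15. Its group means were 149.6 ± 16.7 FPKM (SD, n = 2) in treated and 137 ± 64.7 FPKM (SD, n = 3) in untreated libraries, a log2 difference of 0.27 (SE 0.53, limma adjusted p = 1). Mrps35, specific to mitochondrial ribosomes, measured 57.5 and 67.7 FPKM in treated libraries, against 74.6, 29.1 and 73.6 FPKM in untreated ones. Mrpl20, which has a bacterial counterpart, measured 115 and 105 FPKM in treated libraries, against 159, 57.4 and 132 FPKM in untreated ones. In all 5 genes both treated values were above untreated 14 and below untreated 13 and 15. These genes were picked for a wide gap between those untreated libraries, which favours this order, so they are no separate evidence for it. Among all members it held for 48 of 77, against 16.2% of all genes tested.

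A few members ran the other way, and 4 large-subunit genes were highest in untreated 14: Mrpl14, Mrpl23, Mrpl52 and Mrpl42. Among all genes, 33.5% were highest there. Mrpl14, which lies at the interface of the subunits (chromosome 17, 45686322 to 45698495), measured 59.8 and 61.1 FPKM in treated libraries, against 57.3, 94.7 and 56.1 FPKM in untreated ones. Mrpl14 overlaps Tmem63b on the opposite strand, which had 30.8 and 26.7 FPKM in treated libraries, against 21.6, 48.3 and 19.6 FPKM in untreated ones, and was also highest in untreated 14. Whether counting used strand is not given in the sources used here, so reads from the stretch that both genes cover, at the start of Mrpl14, cannot be assigned to either. Mrpl23, at the exit of the peptide tunnel, measured 54.5 and 54.3 FPKM in treated libraries, against 53.4, 69.5 and 51.4 FPKM in untreated ones. In Mrpl14 and Mrpl23 the treated values lay close above untreated 13 and 15. Mrpl52 measured 67.8 and 85.5 FPKM in treated libraries, against 76.3, 85.9 and 70.5 FPKM in untreated ones, so here the treated libraries differed from each other. Mrpl45, which anchors the ribosome to the inner membrane, and Mrpl18 of the central protuberance were 1.10-fold and 1.05-fold higher in untreated 14 than the mean of untreated 13 and 15.

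**Figure D3:**
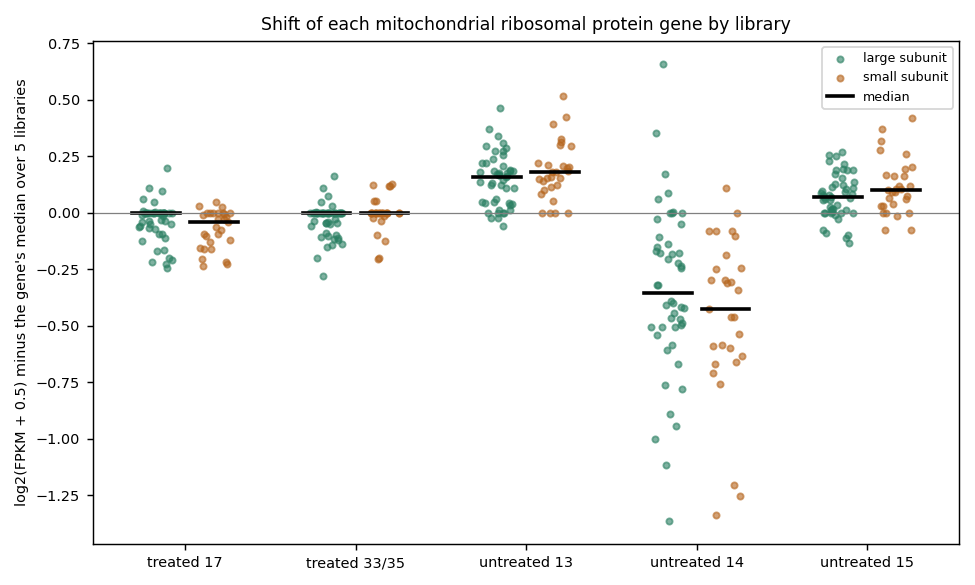
Log2(FPKM + 0.5) of each member minus the median of that gene over the 5 libraries, by library. Points are genes, split into large and small subunit, and black lines are medians, which lie at -0.35 and -0.42 in untreated 14.

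Treated libraries stood between the 2 kinds of untreated library. The median shift, each gene's log2 value minus its median over the 5 libraries, was -0.019 in treated 17 and 0 in treated 33/35, against 0.16, -0.39 and 0.078 in untreated 13, 14 and 15. All genes tested had a median shift of 0 in 4 libraries and -0.023 in untreated 14. Both treated values lay below both untreated 13 and untreated 15 in 54 of 77 members, against 20.8% of all genes, and above both in 2, Mrpl14 and Mrpl23, against 25.3%. In 48 of 77 members both treated values lay above untreated 14 and below untreated 13 and 15, which held for 16.2% of all genes. The same order held for 26 of 37 complex I subunit genes and 11 of 13 brown fat markers. It held for 7 of 11 mitochondrial translation factors, 13 of 20 genes that charge transfer RNAs and 11 of 23 assembly factors. Of 80 cytosolic ribosomal protein genes, 4 showed it. In muscle marker share the treated libraries also lay between untreated 14 and untreated 13 and 15, and the part of muscle content in this order was not tested.

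Without untreated 14, the direction of the group difference turned. The median over members was then -0.16 on the log2 scale, with 70 members lower and 7 higher in treated libraries, against 48.3% of genes lower over all genes in that fit. It was -0.14 in the large and -0.17 in the small subunit. Of the 77 members, 0 passed the limma test there, while 1.11% of all genes were called higher and 0.0673% lower. An unadjusted limma p under 0.05 was found for 12 of 77 members, against 1630 of 13273 genes tested in both fits. The smallest limma adjusted p of a member was 0.186 (Mrps2, log2 difference -0.49). In the treated libraries of this fit, muscle markers held 3.47% and 1.5% of the FPKM sum outside mitochondrially encoded genes. In untreated 13 and 15 they held 0.0338% and 0.0325%, so treatment and muscle marker level cannot be told apart in this fit. Without untreated 13 the median was 0.10, with 15 of 77 members lower in treated libraries against 36.9% of all genes. Without untreated 15 it was 0.094, with 27 lower against 42.4%.

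Regions of the particle were described by lists of 5 or 6 genes. In the stalk that recruits translation factors (Mrpl10, Mrpl11, Mrpl12, Mrpl53 and Mrpl54), all 5 genes lay below untreated 13 and 15 in untreated 14, by a median of -0.32 on the log2 scale. Mrpl12, which also binds the mitochondrial RNA polymerase, measured 127 and 128 FPKM in treated libraries, against 162, 85.1 and 146 FPKM in untreated 13, 14 and 15. Mrpl10, its partner in the stalk, measured 61.2 and 62.9 FPKM in treated libraries, against 81.5, 33.7 and 75.8 FPKM in untreated ones. In Mrpl12 and Mrpl10 the treated values were close to each other, and untreated 14 lay far below untreated 13 and 15. Untreated 14 was the lowest of the libraries for 3 of the 5 stalk genes. The list for the central protuberance held Mrpl18, Mrpl38, Mrpl40, Mrpl46, Mrpl48 and Mrps30. Of these 6 listed genes, 5 lay below in untreated 14 (median -0.49). Of 5 genes around the peptide exit tunnel, 3 did (median -0.32). Among all members 70 of 77 lay below (median -0.47), and among all genes tested 7327 of 13527 (median -0.077).

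Members with further known roles are given next. Mrpl58, a peptidyl-tRNA hydrolase that is also a ribosomal protein, measured 66.7 and 60.0 FPKM in treated libraries, against 69.0, 50.5 and 75.3 FPKM in untreated 13, 14 and 15. Mrpl44, which has a ribonuclease III-like domain, measured 29.1 and 27.3 FPKM in treated libraries, against 35.3, 28.1 and 34.8 FPKM in untreated ones. It had the most negative group difference of all members, -0.20 (SE 0.17, limma adjusted p = 1). The paralogues Mrps18a, Mrps18b and Mrps18c had means over the 5 libraries of 60.7, 56.9 and 52.8 FPKM. Mrps30 measured 24.7 and 27.1 FPKM in treated libraries, against 29.5, 18.5 and 28.2 FPKM in untreated ones, with untreated 14 lowest. Mrps16, Mrps22 and Mrpl3, in which human variants cause combined respiratory chain deficiency, averaged 105 ± 10.6, 27.4 ± 0.064 and 64.5 ± 2.05 FPKM in treated libraries (SD, n = 2), against 102 ± 31.5, 30.3 ± 8.69 and 61.6 ± 11.6 FPKM in untreated ones (SD, n = 3). Mrps12, a protein of the decoding centre, measured 46.5 and 52.1 FPKM in treated libraries, against 58.2, 42.1 and 53.2 FPKM in untreated ones. Groups overlapped in each of these genes.

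Proteins of the mitochondrial ribosome with other names gave 0 of 5 calls. Dap3, the GTP-binding protein of the small subunit, measured 71.2 and 69.8 FPKM in treated libraries, against 75.7, 48.9 and 72.7 FPKM in untreated 13, 14 and 15. Chchd1 measured 90.3 and 89.6 FPKM in treated libraries, against 89.5, 118 and 84.9 FPKM in untreated ones, and was highest in untreated 14 like Mrpl14. Gadd45gip1 stayed between 9.18 and 10.5 FPKM in all libraries. The 2 ribosomal RNAs were lowest in untreated 14: mt-Rnr2 measured 1353 and 1733 FPKM in treated libraries, against 1998, 823 and 1788 FPKM in untreated ones, and mt-Rnr1 measured 1110 and 1334 FPKM in treated libraries, against 1744, 691 and 1482 FPKM. Ribosomal RNA levels in such libraries also depend on how ribosomal RNA was handled, which is not given in the sources used here.

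The other machinery of mitochondrial translation gave 0 calls by limma among 11 translation factors, 20 genes that charge transfer RNAs and 23 assembly factors. Of these genes 1, Lars2, had an unadjusted limma p under 0.05, against 0.924% of all genes tested. Median differences, treated minus untreated on the log2 scale, were 0.029, 0.064 and 0.036. Tufm, the elongation factor that delivers transfer RNAs, measured 126 and 134 FPKM in treated libraries, against 158, 71.2 and 158 FPKM in untreated 13, 14 and 15. Lars2, the mitochondrial leucyl-tRNA synthetase, measured 45.1 and 46.3 FPKM in treated libraries, against 34.4, 26.7 and 34.4 FPKM in untreated ones. Its groups did not overlap, and its log2 difference was 0.52 (SE 0.18, limma adjusted p = 1), and 0.40 without untreated 14 (limma adjusted p = 0.193). Qrsl1, a subunit of the amidotransferase that makes glutaminyl-tRNA, had 14.1 and 13.3 FPKM in treated libraries, against 12.3, 11.3 and 12.9 FPKM in untreated ones. Lars2 and Qrsl1 were the 2 of 20 charging genes whose groups did not overlap, against 8.68% of all genes tested. Of the assembly factors, Mrm1, a ribosomal RNA methyltransferase, had a log2 difference of 0.32 (SE 0.22), Dhx30, an RNA helicase, 0.17 (SE 0.24), and Mettl15, another methyltransferase, -0.27 (SE 0.19). Mtif3, an initiation factor, had 0.19 (SE 0.24), Mtrf1l, a release factor, -0.22 (SE 0.19), and Gfm2, a recycling factor, -0.089 (SE 0.17). Sars2, the seryl-tRNA synthetase, had -0.16 (SE 0.17), and the limma adjusted p was 1 for each of these 7 genes.

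A list of 12 regulators of nuclear or mitochondrially encoded genes was tested gene by gene, and 0 passed the limma threshold. Unadjusted limma p was under 0.05 for 1 of them, Myc, against 0.924% of all genes tested. Ppargc1a measured 13.1 and 12.7 FPKM in treated libraries, against 19.9, 15.0 and 16.0 FPKM in untreated 13, 14 and 15, a log2 difference of -0.37 (SE 0.18, limma adjusted p = 1). Nrf1 measured 6.50 and 6.98 FPKM in treated libraries, against 5.48, 5.23 and 5.53 FPKM in untreated ones (log2 difference 0.29, SE 0.13, limma adjusted p = 1). Myc had 6.62 and 5.68 FPKM in treated libraries, against 3.46, 4.14 and 4.21 FPKM in untreated ones (0.58, SE 0.17, limma adjusted p = 1). These 3 genes, named for having the smallest p of the list, were the 3 of 12 whose groups did not overlap, with Ppargc1a lower and Nrf1 and Myc higher in treated libraries. Groups did not overlap in 8.68% of all 13527 genes tested. Gabpa, the DNA-binding subunit of GABP, measured 31.9 and 37.5 FPKM in treated libraries, against 37.3, 17.6 and 34.8 FPKM in untreated ones. Esrra, a nuclear receptor that works with PGC-1 alpha, measured 81.4 and 75.4 FPKM in treated libraries, against 83.0, 50.0 and 89.8 FPKM in untreated ones. Tfam, which packages mitochondrial DNA, measured 35.7 and 41.7 FPKM in treated libraries, against 40.2, 34.7 and 47.8 FPKM in untreated ones.

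Other ribosomal and mitochondrial genes were set beside the members to show where they differ. Cytosolic ribosomal protein genes ran opposite in untreated 14: 65 of 80 were highest there, against 4 of 77 members, and their median shift was 0.33, against -0.39 for the members. Over all genes tested, 33.5% were highest and 43.6% lowest in untreated 14. Complex I subunit genes, by symbol, were lowest in untreated 14 in 35 of 37, with a median shift of -0.54. Their shifts in treated 17 and treated 33/35 were -0.13 and 0, against -0.019 and 0 for the members. Mitochondrial translation factors had a median shift of -0.67 in untreated 14, charging enzymes -0.49, assembly factors -0.34 and mitochondrially encoded protein genes -0.38. These are medians over lists in single libraries and were given no test.

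**Figure D4:**
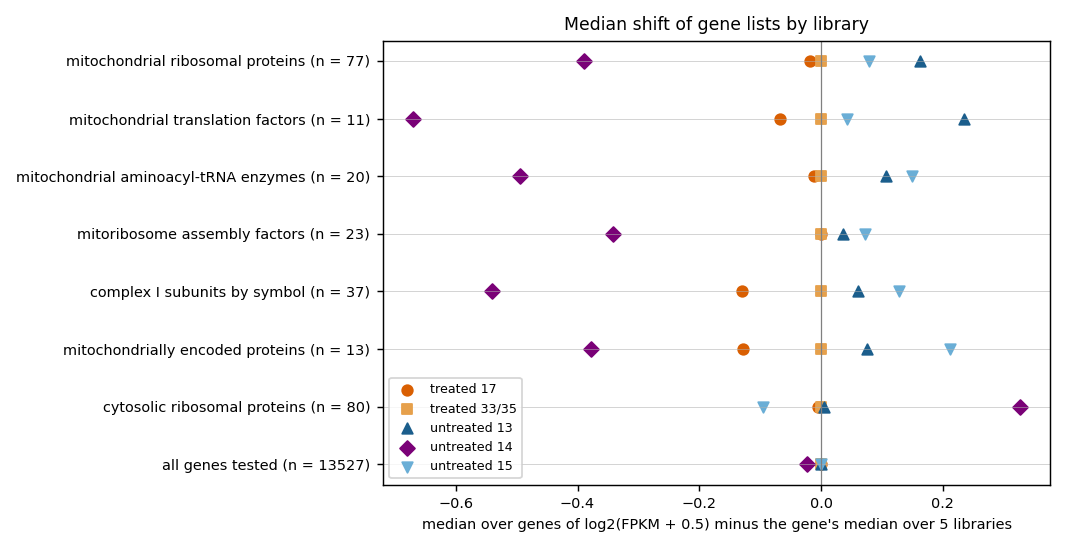
Median over genes of log2(FPKM + 0.5) minus each gene's own median over the 5 libraries, for 8 gene lists. In untreated 14 the mitochondrial lists lie below 0, from -0.67 to -0.34, and cytosolic ribosomal proteins lie at 0.33.

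Promoters of the members held these motifs at higher shares than promoters at large. RefSeq lists 74 promoters for 68 of the 77 members, each window running from 250 bases before to 50 bases after the start. The NRF1 motif was searched on both strands, as were the others. It was found in 13 of 74 windows (17.6%), against 4.60% of all 32851 windows and 9.91% of the 12248 windows of genes tested here. The ETS motif CCGGAAG was in 25 windows (33.8%), against 8.86% of all and 17.3% of tested genes, and the YY1 motif AAGATGGCG was in 8 (10.8%), against 1.40% and 3.0%. The closing AAG of the ETS motif can be the opening AAG of the YY1 motif, so these matches may overlap. At least 1 of the 3 was present in 40 of 74 member windows (54.1%), against 13.6% of all and 27.1% of tested genes. Promoters of the 68 members were also richer in G and C over the 250 bases before the start, with a median of 58.4%. The median was 52.0% over all 27025 RefSeq symbols, and none was computed for tested genes alone. A match describes letters and does not show binding. Members with an NRF1, ETS or YY1 match had median differences of -0.32, -0.37 and -0.36 on the log2 scale in untreated 14 relative to untreated 13 and 15. The median was -0.61 for the 30 members with at least 1 window free of these matches. Some of these 30 had a match in another window. No test was made of these shares and medians. The capitals in Mrpl12, Mrpl34 and Mrpl52 above mark such matches. Of these genes Mrpl12 and Mrpl34 were lower and Mrpl52 higher in untreated 14, and Mrps2, with no match in the window, was the farthest below.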

How the data were processed

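The authors deposited 1 table per sample with FPKM values for 45320 Ensembl identifiers, per the file headers. The tool CASAVA 1.7 and the build GRCm38 are given, per the submitters' processing notes. Aligner, quantification program and annotation are not given in the sources used here, and read depth is unknown. Symbols and coordinates came from GENCODE M21 (GRCm38), which held 44395 identifiers. Promoters came from RefSeq (GRCm38.p6).

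Values were compared on log2(FPKM + 0.5) with limma 3.58.1 in R 4.3.3 (empirical Bayes with a variance trend, two-sided, 3 residual degrees of freedom), over the 13527 genes averaging 1 FPKM or more, with Benjamini-Hochberg adjustment and a threshold of 0.05. Fold changes on this scale understate low genes. Python 3.11.15 with pandas 2.3.3 and matplotlib 3.10.9 did the counting and plotting.

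Members and lists were chosen with earlier results of these data known. The naming rule took members past the threshold, up to 4 of smallest p per direction without overlap, the 5 highest and 5 lowest levels, the 5 most displaced each way in untreated 14, and genes of known role; of the other translation lists and the regulators up to 3 of smallest p were named, besides 6 fixed genes. Alternatives changed the pseudocount, filter, variance model, scaling, gene universe and libraries.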

Additional observations from a re-analysis of the deposited data

How the results depend on the processing

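The count of members past the threshold was 0 under each of the 13 alternatives. Without untreated 14, an unadjusted limma p under 0.05 was found for 12 of 77 members, against 1630 of 13273 genes. Over all genes, limma called 6 genes, and 2 with a pseudocount of 0.1, 1 with a mean of at least 5 FPKM, 0 with no filter (522 at an unadjusted p under 0.05) and 0 among protein-coding genes (82 at an unadjusted p under 0.05). Leaving out 1 library in turn gave 0 to 158 genes, the highest without untreated 14, and the median of members ranged from -0.16 to 0.10, of the large subunit from -0.14 to 0.10, of the small from -0.17 to 0.11, and large minus small from -0.086 to 0.037. Centring each library on its median moved the median of all genes from 0.061 to -0.051 and that of members to -0.097. Of 32 named members, 16 changed sign without untreated 14 and 12 under centring, none of them called. With 1 treated library left out, the remaining one is assumed to vary like the untreated ones. No paired analysis was possible because the groups share no replicate number. Read depth is unknown, so no counting error is given.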

Other observations

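Processed pseudogenes carry some of the same names, and how reads were divided between them and their parents is not given in the sources used here. Mrps36-ps2 measured 29.4 and 35.5 FPKM in treated 17 and treated 33/35, against 40.4, 15.5 and 41.4 FPKM in untreated 13, 14 and 15, in the same order of libraries as Mrps36 itself. Mrps36-ps1 measured 14.7 and 15.6 FPKM in treated libraries, against 19.4, 7.08 and 20.8 FPKM in untreated ones. Mrps36-ps3 was listed at 0 in all 5 libraries, and Mrpl48-ps and Mrpl23-ps1 stayed between 1.52 and 8.40 FPKM. The values of Mrps36 and these copies are therefore uncertain.

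The annotation places another protein-coding gene over 25 of the 77 members, on the opposite strand for 22. Members lie on 17 chromosomes. Mrpl18 overlaps Tcp1, a cytosolic chaperonin subunit, which measured 126 and 126 FPKM in treated libraries, against 143, 141 and 123 FPKM in untreated 13, 14 and 15.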
